A study of Mus musculus with 144 samples.

Results

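Spleen at 24 months of age was compared between mice carrying the naked mole-rat hyaluronan synthase 2 transgene (nmrHAS2) and control mice (CreER). Every library labelled as spleen, 24 months and one of these genotypes was taken, 6 of nmrHAS2 and 6 of CreER, which makes 12 of the 144 libraries of the series. Each genotype had 3 female and 3 male libraries, and the sexes were given equal weight. From what is known of the study, CreER is a recombinase that tamoxifen activates and that switches the transgene on, and the controls carry it too. The labels state only genotype, sex, age and tissue, and give no tamoxifen dose, no promoter of the transgene and no animal behind a library. The study asked whether more hyaluronan, as the long-lived naked mole-rat has, improves health in mice. RNA came from whole pieces of tissue, and in such bulk samples fewer cells of a type and less RNA per cell cannot be told apart.

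The spleen filters blood and mounts immune responses. Its red pulp holds macrophages that take up old red blood cells, its white pulp holds B cell follicles and T cell zones, and in mice it also forms blood cells. Hyaluronan is a long sugar polymer of the extracellular matrix that the synthases HAS1, HAS2 and HAS3 make at the cell membrane, hyaluronidases cut, receptors such as CD44 and LYVE1 bind, and the scavenger receptor stabilin-2 of sinusoidal endothelium removes from the blood.

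The 2 sexes came as different kinds of library. Old females held 80.21 M to 102.5 M expected counts and old males 20.49 M to 28.31 M, and 3 RNAs without a poly(A) tail took 4.02 to 7.88% of the counts in old females and at most 0.00404% in old males. Sex and library kind therefore cannot be told apart. Old male CreER 1 and 3 were nearly alike: over 199 immunoglobulin variable segments their log2 levels correlated at 0.992, against 0.601 to 0.836 in the other 65 pairs of old spleens. Their counts differed by a chi-square of 17.5 per gene, against 64.4 to 818 in the other 11 old pairs of a group. This measure grows with depth, and the other old male pairs, of like depth, had 64.4 to 252. A value of 17.5 is more than counting noise, which does not show that the 2 libraries come from separate animals. They were kept as 2 because the labels list them as separate samples, and whether they share an animal was not tested. Male results are also given with these 2 libraries, and a like pair of young females, each summed to 1 library.

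B cell markers summed to 13030 to 45590 CPM (counts scaled to the size of the library) and red pulp macrophage markers to 2926 to 7364 CPM in the 12 spleens, and no library lacked either. Some libraries stood apart. Germinal centre markers summed to 929.4 CPM in male CreER 2 and to 73.78 to 124.4 CPM in the other 11. Erythroid markers ran from 11420 CPM in male CreER 2 and 15210 CPM in female nmrHAS2 2 to 128300 CPM in male nmrHAS2 3, which also had the highest neutrophil sum (16580 CPM). Transcripts of pancreatic acinar cells, which lie beside the spleen in the animal, summed to 11620 CPM in female nmrHAS2 1, 1714 CPM in female CreER 1 and 9.114 to 165.2 CPM in the other 10.

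**Figure D1:**
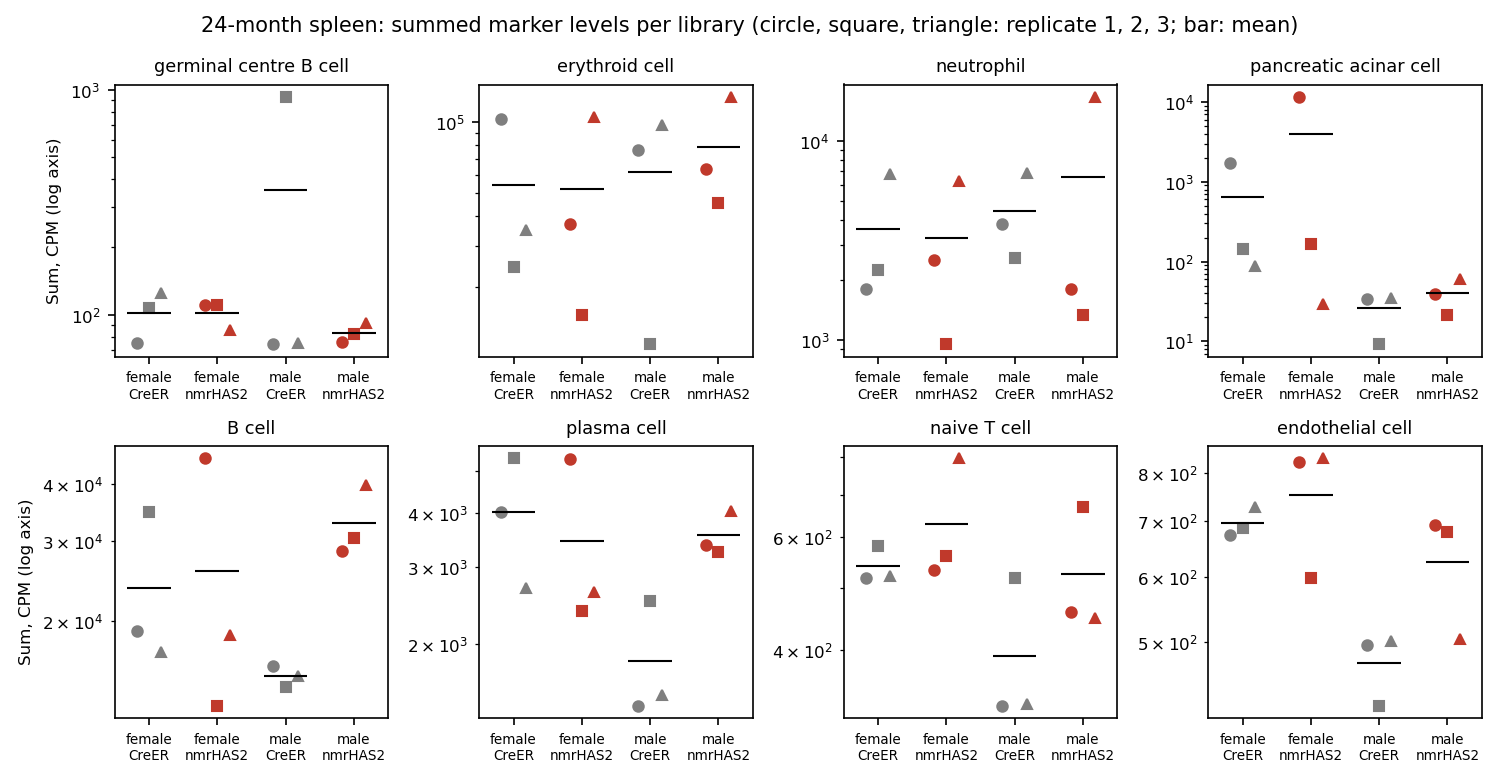
Summed CPM of 8 marker lists in each of the 12 spleens at 24 months, on log axes, by sex and genotype; circle, square and triangle are replicates 1, 2 and 3, and bars are means of 3 libraries. Male CreER 2 stands far above the rest for germinal centre markers (929.4 CPM) and female nmrHAS2 1 for acinar transcripts (11620 CPM).

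The transgene was read at a low level in old spleen. Females had 4.09, 1.16 and 1.25 CPM in nmrHAS2 and 0.361, 1.89 and 0.353 CPM in CreER. Males had 1.03, 1.4 and 0.353 CPM in nmrHAS2 and 0.617, 0.529 and 0.421 CPM in CreER. Female CreER 2 (186 counts) lay above 2 of the 3 female nmrHAS2 libraries (119 and 123 counts). Male nmrHAS2 3 lay below all 3 male controls in CPM, with 10 counts against 14, 11 and 10, too few to rank them. By CPM these 2 libraries go against their labels, for male nmrHAS2 3 on few counts. The mean difference in log2(CPM + 0.1) was 0.97 (exact two-sided permutation test within sex, p = 0.095, adjusted over the transgene and Has2 p = 0.19; the smallest possible p is 0.005). Leaving out 1 library at a time gave exact permutation p of 0.035 to 0.21. The p was under 0.05 only without male nmrHAS2 3 (difference 1.22, exact permutation p = 0.035) or female CreER 2 (difference 1.32, exact permutation p = 0.04), and as these 2 stand out by the value tested, those p support nothing.

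Over both sexes 1 of 20851 genes passed an adjusted p of 0.05 in edgeR's quasi-likelihood test with Benjamini-Hochberg adjustment (0.0048%). It was Gm14139, a predicted gene. Its lowest, median and highest levels were 0.0452, 0.185 and 0.271 CPM in nmrHAS2 and 0.316, 1.03 and 3.13 CPM in CreER. The genotypes did not overlap in any library, and Gm14139 fell by 2.44 ± 0.37 on the log2 scale (± standard error, n = 6 per genotype, adjusted p = 0.0418). Its difference was -1.01 ± 0.47 in females and -3.86 ± 0.56 in males (edgeR adjusted p of the difference between sexes 0.138). The nmrHAS2 males were at 0.0452, 0.252 and 0.118 CPM, and 3 counts make about 0.146, 0.124 and 0.106 CPM in these libraries. The size of the male difference therefore rests on few counts. No gene was called with the replicate number as a block (0) or with near-identical libraries summed (0). At an unadjusted p under 0.05, 1103 genes were higher and 741 lower (5.29% and 3.55%, 8.84% in all). DESeq2 called 100 genes and limma's voom with sample weights 2007.

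The named genes with the smallest unadjusted p and the same sign in both sexes did not pass the adjusted threshold and are given as values. Cdh2, which encodes N-cadherin, had a lowest, median and highest level of 3.48, 4.43 and 4.77 CPM in nmrHAS2 and 2.13, 2.5 and 3.21 CPM in CreER. Every nmrHAS2 spleen lay above every CreER spleen, as in 0.0288% of genes, and the log2 difference was 0.73 ± 0.16 (edgeR adjusted p = 0.15). For comparison, 0.0192% of genes lay lower in all 6, and 0.225% and 0.0671% were apart in the same direction within each sex. Gzmm, which encodes granzyme M of NK and T cells, had levels of 3.49, 4.68 and 9.85 CPM against 0.843, 1.94 and 3.92 CPM. Only female CreER 2 reached into the nmrHAS2 range, with a difference of 1.30 ± 0.32 (adjusted p = 0.214). Ccng1, which encodes cyclin G1, a p53 target, had levels of 132, 154 and 198 CPM against 179.6, 218 and 410.2 CPM, a difference of -0.58 ± 0.13 (adjusted p = 0.176). Trmt2b, a tRNA methyltransferase gene, had levels of 32.3, 35.9 and 45.9 CPM against 38.9, 43 and 56.3 CPM, and its difference was alike in females (-0.25) and males (-0.34). The other genes with positive differences were Nbea, Lrrc8a, Sema6a, Cnksr3, Frs2, Cbr2, Ighd and Jade1, and those with negative ones Npr3, Il1rn, Vrk2, Tnfsf4, Cyp51, Lipo3, Scimp and Gstt1.

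Most of the largest differences went with 1 or 2 libraries. Gp2 and Cela1, both secreted by pancreatic acinar cells, were among the 5 largest positive ones and reached 136 and 1010 CPM in female nmrHAS2 1, the library with the most acinar transcripts. Without that library their differences were -0.11 and -0.43. Of the 5 largest negative ones, Gpat2, Aldh8a1, Abcc2 and Pde1c had their highest level in male CreER 2 at 63.9, 32.2, 29.6 and 88.4 CPM. The last, Gnb3, was highest in the near-identical male CreER 1 and 3 at 8.21 and 6.66 CPM.

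Within females 0 genes passed (edgeR), with 334 higher and 207 lower at an unadjusted p under 0.05 (1.6% and 0.993%, 2.59% in all). DESeq2 called 19 genes in females and voom 0. Within males 129 genes rose and 150 fell (0.619% and 0.719%, 1.34% in all). The groups were apart in 7.68% (higher) and 6.51% (lower) of genes in males and in 4.69% and 2.72% in females. The male count was 135 with the replicate block, 21 with near-identical libraries summed (20 of them among the 279) and 0 with only old spleens in the fit. Without male CreER 2 it was 1170 (2.69% higher, 2.6% lower), 231 of them among the 279.

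Of the male calls, Fabp5, Apobec2, Il1rn, Hpse, Itgad and Adam22 passed also with the near-identical libraries summed, and were chosen after their values were seen. The other male calls given by gene below did not pass in that fit. Fabp5, a fatty acid-binding protein, was at 48.9, 55.9 and 80.1 CPM in male nmrHAS2 and 152, 179 and 160.1 CPM in male CreER. The groups did not overlap, and Fabp5 fell by 1.41 ± 0.17 (edgeR adjusted p = 0.00229, and 0.0134 with libraries summed). In females it was at 62.5, 61.7 and 62 CPM against 42.1, 55.8 and 53.8 CPM, apart in the other direction (0.30 ± 0.17). Apobec2, of the APOBEC family of deaminases, was at 0.633, 0.575 and 1.38 CPM in male nmrHAS2 and 26.8, 6.3 and 24 CPM in male CreER. Male CreER 2 was the lowest control and still lay above all nmrHAS2 males, and Apobec2 fell by 4.46 ± 0.58 (adjusted p = 0.00263). Il1rn, the antagonist of the interleukin 1 receptor, was at 18.4, 14.8 and 20.2 CPM against 73.8, 33.1 and 63.4 CPM and fell by 1.67 ± 0.26 (adjusted p = 0.00594). Hpse, the heparanase that cuts heparan sulfate, was at 32.8, 45.3 and 40.4 CPM against 73.7, 152 and 66.8 CPM and fell by 1.31 ± 0.26 (adjusted p = 0.0209), its highest level being in male CreER 2. In females the levels of Il1rn and Hpse overlapped between genotypes.

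Among genes that rose, Itgad encodes the integrin alpha D chain found on red pulp macrophages. It was at 154, 186 and 203 CPM in male nmrHAS2 and 56, 50.7 and 59.7 CPM in male CreER. No control came near the nmrHAS2 males, and Itgad rose by 1.71 ± 0.25 (adjusted p = 0.00549, and 0.0468 with libraries summed). In females the groups overlapped, with 116 to 334 CPM against 269 to 316 CPM. Adam22, of the ADAM family of membrane proteins, was at 14.4, 10.9 and 13.7 CPM against 6.67, 6.5 and 6.21 CPM in males and rose by 1.01 ± 0.15 (adjusted p = 0.00594). In females the order was the opposite, with 21.5, 15.3 and 16.9 CPM in nmrHAS2 and 21.7, 23.1 and 29 CPM in CreER.

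**Figure D2:**
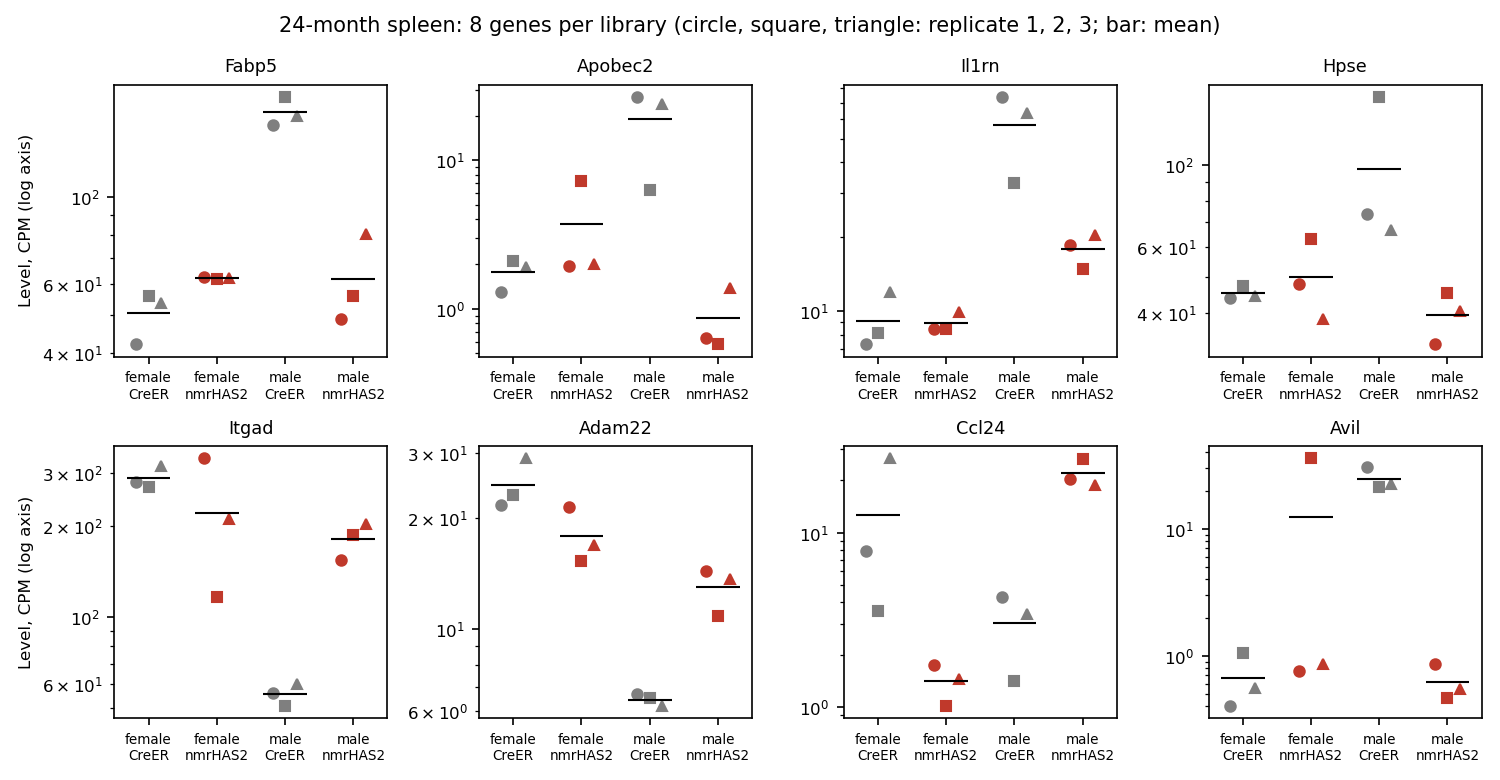
Levels of 8 genes in each of the 12 spleens at 24 months, in CPM on log axes, by sex and genotype; circle, square and triangle are replicates 1, 2 and 3, and bars are means of 3 libraries. The male groups are apart in all 8 genes, and Fabp5, Adam22 and Ccl24 are apart in the opposite order in females.

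The genotype difference itself differed between the sexes for 21 genes (0.101%), 13 with a more positive and 8 with a more negative value in males (0.0623% and 0.0384%). At an unadjusted p under 0.05 the shares were 4.53% and 5.59%, 10.1% in all. The count was 13 with the replicate block and 7 with near-identical libraries summed. Ccl24, which encodes the eosinophil-attracting chemokine eotaxin-2, was at 1.75, 1.02 and 1.44 CPM in female nmrHAS2 and 7.86, 3.55 and 26.7 CPM in female CreER. In males it was at 20.4, 26.3 and 18.9 CPM in nmrHAS2 and 4.26, 1.41 and 3.44 CPM in CreER. The groups were apart in both sexes, in opposite order, and the log2 effects differed by 6.03 ± 0.74 (male minus female, edgeR adjusted p = 0.0019, and 0.0328 with the block). Avil, which encodes the actin-binding protein advillin, was at 30.7, 21.2 and 22.7 CPM in male CreER and 0.859, 0.467 and 0.552 CPM in male nmrHAS2. Among females it was at 35.8 CPM in nmrHAS2 2 and at 0.403 to 1.06 CPM in the other 5, so the female side of its difference (-9.52 ± 1.42, adjusted p = 0.0064) is 1 library. Cd1d1, which presents lipids to NKT cells and is high on marginal zone B cells, was at 37.2, 26.9 and 25.2 CPM against 68.8, 41.4 and 54.2 CPM in females. In males Cd1d1 was at 44.2, 67.3 and 41.7 CPM against 29.3, 18.4 and 26.6 CPM, again apart in the opposite order (adjusted p of the difference 0.0224, and 0.108 with the block).

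Hyaluronan genes showed no common direction. Of 32 tested members of 36 listed, 0 were called over both sexes, 4 were higher and 1 lower at an unadjusted p under 0.05 (all genes 5.29% and 3.55%), and the median log2 difference was -0.005, against 0.037 over all genes. Of the synthases, Has2 was at 2.54, 2.22 and 0.684 CPM in female nmrHAS2 and 1.14, 1.51 and 1.13 CPM in female CreER, with overlap. In males Has2 was at 0.859, 1.62 and 1.1 CPM against 2.72, 3.73 and 2.9 CPM, without overlap, a difference of -1.38 ± 0.35 (edgeR adjusted p = 0.0521). Over both sexes its difference in log2(CPM + 0.1), from CPM without TMM scaling, was -0.50 (exact permutation p = 0.265). Has1 and Has3 lay below 1 CPM in all 12. The hyaluronidase gene Hyal2 lay between 9.92 and 17.6 CPM in the 12 spleens, with overlap in both sexes.

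Among receptors, Stab2 (stabilin-2) was at 165, 169 and 96 CPM in male nmrHAS2 and 67.7, 84 and 74 CPM in male CreER. All 3 nmrHAS2 males lay above the controls, and Stab2 rose by 0.93 ± 0.20 (edgeR adjusted p = 0.0274). Its relative Stab1 was at 45.2, 31.2 and 21.3 CPM against 13.9, 19.5 and 15.8 CPM and rose by 0.99 ± 0.24 (adjusted p = 0.0467, 0.085 with the replicate block). In females both overlapped between genotypes, and with near-identical libraries summed 0 members of the list were called in males. Cd44 was at 283, 258 and 238 CPM in female nmrHAS2 and 205, 199 and 188 CPM in female CreER, apart, with a difference of 0.40 ± 0.14. In males Cd44 overlapped, at 256, 252 and 297 CPM against 363, 245 and 349 CPM, and the difference between the sexes did not pass (adjusted p = 0.216). Lyve1 was at 1, 1.64 and 2.49 CPM in female nmrHAS2 and 4.71, 4.57 and 4.86 CPM in female CreER, apart (-1.46 ± 0.65), and overlapped in males.

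Cholesterol synthesis genes had small negative differences in males. In males 22 of 23 tested members were below 0, against 45.9% of all genes, with a median of -0.295 (all genes 0.033). Of these, 3 fell (all genes 0.719%), and 8 were lower at an unadjusted p under 0.05 (all genes 8.58%, and 16.7% in either direction). In females 12 of 23 were below 0, with a median of -0.017. The male shift was not particular to this list. In males 30 of 30 cytosolic ribosomal protein genes (median -0.353) and 18 of 22 glycolysis and hypoxia genes (median -0.403) were below 0, with 0 called. Other lists went the other way, as did 22 of 22 erythroid genes (median 0.738). Cyp51, the lanosterol demethylase, was at 22.1, 26 and 27 CPM in male nmrHAS2 and 52.2, 57.7 and 50 CPM in male CreER and fell by 1.09 ± 0.22 (edgeR adjusted p = 0.0209). Hmgcs1, which makes HMG-CoA, was at 26.5, 38.2 and 29.9 CPM against 59, 68.9 and 46.6 CPM and fell by 0.88 ± 0.19 (adjusted p = 0.0326). For both genes the male groups did not overlap. Srebf2, which encodes the transcription factor of the pathway, was at 47.6, 61.2 and 27.9 CPM against 55.5, 69.9 and 44.9 CPM, with overlap. The list summed to 489.3, 514.8 and 549.8 CPM in nmrHAS2 males, 735.9, 742.7 and 686.7 CPM in CreER males and 354.4 to 436.9 CPM in the 6 females. Without male CreER 2 the male median was -0.286 with 4 called lower (all genes 2.6%), and with near-identical libraries summed 0 were called.

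The 250 bases before the start of Cyp51 and Hmgcs1 are shown because both genes fell in males and their promoters are in the RefSeq table (build GRCm38.p6). The search used 16 of the 24 listed genes from it. Capitals mark a sterol regulatory element, TCACNCCAC, and the NF-Y box, CCAAT. Both strands were searched, and a box on the other strand reads ATTGG.
Cyp51: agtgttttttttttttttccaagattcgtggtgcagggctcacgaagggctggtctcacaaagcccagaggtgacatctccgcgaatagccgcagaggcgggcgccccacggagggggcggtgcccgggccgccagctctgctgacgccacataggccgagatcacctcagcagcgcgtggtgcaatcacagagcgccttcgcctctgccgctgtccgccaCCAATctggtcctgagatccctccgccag
Hmgcs1: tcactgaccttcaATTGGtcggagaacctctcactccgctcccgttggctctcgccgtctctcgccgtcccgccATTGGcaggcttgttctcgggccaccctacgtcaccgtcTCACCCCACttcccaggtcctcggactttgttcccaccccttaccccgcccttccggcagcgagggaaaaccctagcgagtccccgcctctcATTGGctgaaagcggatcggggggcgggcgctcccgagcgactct
Cyp51 lies on the minus strand at chr5:4104698-4104947 and Hmgcs1 on the plus strand at chr13:119690101-119690350, each read 5′ to 3′ along its gene. In Hmgcs1 the sterol element began 137 bases before the start and the NF-Y box 237, 176 and 45 bases before it. In Cyp51 the NF-Y box began 29 bases before the start. The searched letters of the sterol element were in 1 of 19 windows of the list and in 1.05% of all 32851 windows. The NF-Y box was in 16 of 19 and in 33.8%. No 2 matches overlapped, and a match shows only that the letters are there. Only this 1 spelling of the sterol element was searched. A window without a match, such as that of Cyp51, may therefore hold another form of it.

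Of 16 B cell and 14 plasma cell markers, Ighd and the plasma cell marker Sdc1 passed in males. Of 10 marginal zone B cell markers, Cd1d1 rose in males (all genes 0.619%). In males 1 of 10 germinal centre and 1 of 10 age-associated B cell markers fell (all genes 0.719%). Between the sexes 0 of 16 B cell, 0 of 14 plasma cell and 0 of 10 germinal centre markers passed (all genes 0.101%), while Cd1d1 did. At an unadjusted p under 0.05, 10 of 14 plasma cell markers were more positive in males (all genes 4.53%) and 6 of 10 germinal centre markers more negative (all genes 5.59%). Ighd, the constant gene of IgD on naive B cells, was at 142, 472 and 352 CPM in male nmrHAS2 and 61.2, 117 and 45.8 CPM in male CreER. The groups were apart, and Ighd rose by 2.11 ± 0.41 (edgeR adjusted p = 0.0193), while in females they overlapped. B cell markers as a list had no common direction in males: 9 of 16 were below 0, with a median of -0.113 (all genes 0.033). Ms4a1, which encodes CD20, differed by -1.28 ± 0.40 (adjusted p = 0.105). The summed level of the 16 B cell markers was 28530, 30530 and 39770 CPM in nmrHAS2 males and 15960, 14340 and 15170 CPM in CreER males. In females this sum overlapped, at 45590, 13030 and 18640 CPM against 19070, 34750 and 17160 CPM. The sum is mostly Ighm, the IgM constant gene, which differed by 1.29 ± 0.45 in males (adjusted p = 0.147). Sdc1, the plasma cell marker CD138, was at 24.8, 29.4 and 16.1 CPM against 6.76, 11.9 and 6.97 CPM in males and rose by 1.45 ± 0.35 (adjusted p = 0.0487, 0.0793 with the replicate block). All 14 plasma cell markers had a positive male difference, with a median of 0.726, and 8 passed an unadjusted p under 0.05 (all genes 8.11%). In females 13 of 14 were negative, with a median of -0.228. Without male CreER 2, 6 of the 14 plasma cell markers were called higher in males (all genes 2.69%), and with near-identical libraries summed 0.

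Immunoglobulin and T cell receptor segments held 7 of the 20 smallest p over both sexes. Of 289 tested, 63 were higher and 20 lower at an unadjusted p under 0.05 (28.7%, against 8.56% of other genes), and 0 were called. In males 22 rose and 1 fell, against 107 and 149 of 20562 other genes, and with near-identical libraries summed no segment among these passed. Heavy chain variable segments summed to 4064, 5746 and 6802 CPM in male nmrHAS2 and 1917, 2480 and 2152 CPM in male CreER, without overlap. In females they summed to 7831, 2751 and 4267 CPM against 4822, 5977 and 5055 CPM, with overlap. Single segments led single libraries: Ighv1-52 held 37.6% of the heavy variable sum in female nmrHAS2 1, and Ighv3-6 held 30.3% and 33.6% in the near-identical male CreER 1 and 3. Segments are alike in sequence and the counting can split reads between them, so single segments are uncertain.

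Germinal centre markers had negative differences that went with 1 control library. Of 10 markers 7 were lower over both sexes at an unadjusted p under 0.05 (all genes 3.55%), with a median of -1.27, and without male CreER 2 and female nmrHAS2 2 the median was 0.074. Rgs13, a regulator of G protein signalling, was at 252 CPM in male CreER 2 and at most 4.32 CPM in the other 11. Zbtb32, a repressor found in age-associated B cells, was at 85, 8.27 and 70.2 CPM in male CreER and 8.77, 9.1 and 4.96 CPM in male nmrHAS2. It fell by 2.84 ± 0.62 (adjusted p = 0.0315, 0.104 with the replicate block), and its 2 high values are the near-identical libraries.

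Naive T cell markers had positive differences over both sexes in 10 of 10, with a median of 0.456, while 44.1% of all genes were below 0, with a median of 0.037. None was called, and 4 were higher at an unadjusted p under 0.05 (all genes 5.29%). Satb1, a chromatin organiser of T cells, was at 32.5, 22.7 and 39.3 CPM against 23.4, 29.1 and 23.4 CPM in females and 21.4, 38.8 and 13.8 CPM against 7.94, 14.7 and 6.7 CPM in males, with overlap in both, and a difference of 0.83 ± 0.24 (edgeR adjusted p = 0.314).

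Of 27 cytokine and NF-kB genes, 1 rose and 2 fell in males (all genes 0.619% and 0.719%). Cxcl12, the stromal chemokine that retains B lineage cells, was at 302, 301 and 171 CPM in male nmrHAS2 and 64.7, 129 and 65.4 CPM in male CreER and rose by 1.58 ± 0.30 (edgeR adjusted p = 0.018). Tnf was at 5.43, 7.55 and 7.68 CPM against 19.3, 14.8 and 18.8 CPM and fell by 1.35 ± 0.31 (adjusted p = 0.0371, 0.0966 with the replicate block). The chemokine gene Ccl3 was at 6.2, 2.91 and 4.65 CPM against 13.1, 20.2 and 12.7 CPM and fell by 1.75 ± 0.35 (adjusted p = 0.0217, 0.0852 with the replicate block). The male groups were apart for all 3 genes. The median of the list was -0.545 in males (all genes 0.033) and 0.242 in females (all genes 0.036), and with near-identical libraries summed 0 were called in males.

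Of 14 endothelial markers 6 were higher over both sexes at an unadjusted p under 0.05 (all genes 5.29%), none was called, and the median was 0.253 (all genes 0.037). They include Stab2 (0.50 ± 0.14), the receptor gene Tie1 (0.41 ± 0.13) and Cdh5, the cadherin of endothelial junctions (0.35 ± 0.11). Madcam1, the addressin of the marginal sinus, was at 7.14, 12.2 and 7.25 CPM in male nmrHAS2 and 21.3, 36.7 and 18.2 CPM in male CreER and fell by 1.52 ± 0.34 (edgeR adjusted p = 0.0347, 0.0509 without male CreER 2). It was listed with 16 tested fibroblastic reticular cell markers, of which 10 were above 0 in males, with a median of 0.322 (all genes 0.033). Of these 16, 4 were higher and 2 lower in males at an unadjusted p under 0.05 (all genes 8.11% and 8.58%). Marco, a scavenger receptor of marginal zone macrophages, was at 280.2, 223 and 242 CPM in female nmrHAS2 and 146, 125 and 80.5 CPM in female CreER. These female groups were apart (1.09 ± 0.39, not called), and males had 9.4 to 43.8 CPM. Of 22 erythroid, 16 neutrophil and 35 cell cycle genes, 0 had an unadjusted p under 0.05 over both sexes. Of 19 clock genes 5 were higher at that level (all genes 5.29%), and the labels do not give the hour of sampling.

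**Figure D3:**
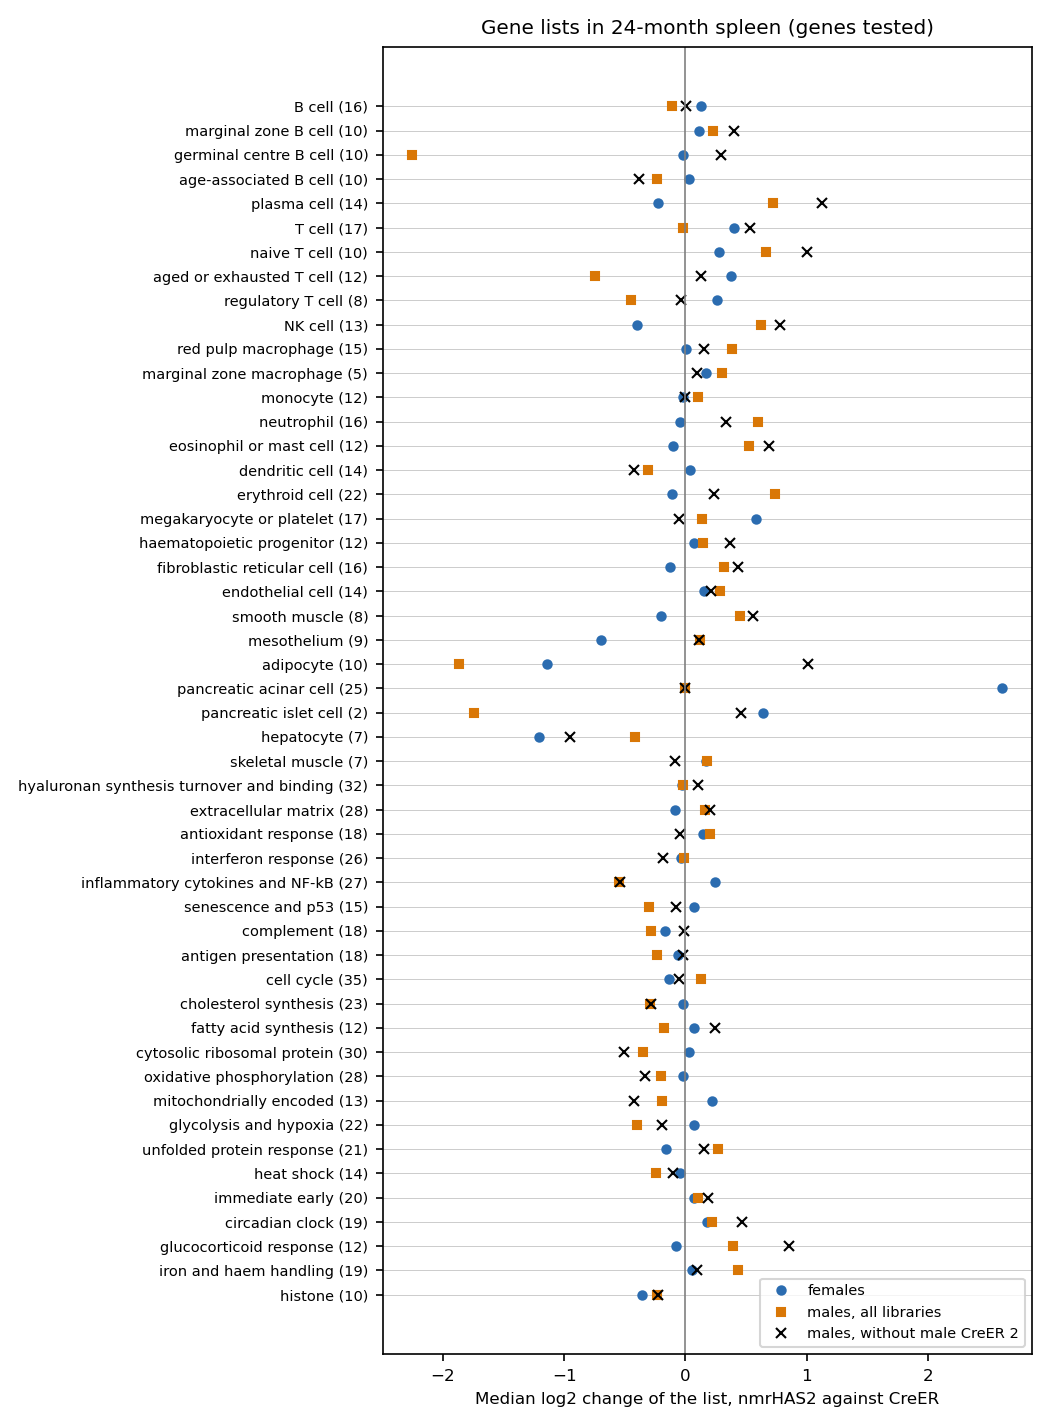
Median log2 difference, nmrHAS2 minus CreER, of 50 gene lists at 24 months in females, in males and in males without male CreER 2. The germinal centre median moves from -2.251 to 0.294 without that library, and the cholesterol median from -0.295 to -0.286.

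Against spleens of 6 months, 0 genes had a genotype difference that changed with age (edgeR), with 508 more positive and 337 more negative at 24 months at an unadjusted p under 0.05 (2.44% and 1.62%, 4.05% in all). DESeq2 called 33 and voom 33. The smallest p were those of Adgrd1, Myl4, Bhlha15, Cxcr3 and Muc16. Cxcr3, a chemokine receptor of activated lymphocytes, differed by 0.34 at 24 months and -0.84 at 6 months, a change of 1.18 ± 0.29 (adjusted p = 0.448). All 6 young female libraries held 11890 CPM or more of acinar transcripts, and their part in this comparison was not tested.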

How the data were processed

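RNA of 12 spleens at 24 months and 12 at 6 months was analysed. The authors deposited expected counts for each gene, made with Trim Galore 0.6.5 and Salmon 1.4.0, per the submitters' processing notes. Their build and annotation were not given in the sources used here. Values were rounded to whole numbers.

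All 24 spleens entered 1 fit in edgeR 4.0.16 (R 4.3.3) with 8 means of age, sex and genotype, TMM scaling, filterByExpr (20851 of 40946 genes kept) and the quasi-likelihood F test, adjusted by Benjamini and Hochberg over the genes tested. A standard error is the size of the log2 change over the root of its F. CPM are TMM-scaled, except for the transgene levels and the permutation tests of the transgene and Has2, which use unscaled CPM. The test was tried on simulated data of independent libraries, which lacked features of the real libraries that are given at the end. No label ties a library to an animal, so the spread that p-values rest on may be technical.

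The members, 50 gene lists (824 of 827 symbols found) and tests were chosen with earlier results of these data known. Named genes are the called ones, the 10 smallest p and 5 largest differences per direction (2 CPM or more on average, signs alike in females and males), up to 4 per list, up to 3 called per sex and direction, and the 5 smallest p between sexes and ages; predicted genes, pseudogenes, segments and sex-linked genes were left out of the rankings. Others were chosen after their values were seen. Some genes counted in the lists are not reported here by name.

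Libraries of the same number deviated together in 6 of 6 pairs (correlation 0.109 to 0.306, against -0.25 to 0.105 in other pairs). The main fit did not pair libraries, and only the alternative with the replicate block took the number as a pair. The labels do not say what a number marks. Alternatives were RLE scaling, no filter, DESeq2 1.42.0, voom with sample weights (limma 3.58.1), the replicate block, only old spleens, and libraries left out singly or in sets. Fits without 2 libraries that stand apart, without receptor segments and with near-identical libraries summed were chosen after seeing the data.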

Additional observations from a re-analysis of the deposited data

Results flagged for a closer look

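The genotype difference differed between the sexes for 21 genes by a test of that difference (edgeR, Benjamini-Hochberg). The named genes with the smallest p had male minus female log2 values of 6.03 (Ccl24, adjusted p = 0.0019), -5.54 (Apobec2, adjusted p = 0.00528), -1.71 (Fabp5, adjusted p = 0.00635), 1.47 (Adam22, adjusted p = 0.0064) and -9.52 (Avil, adjusted p = 0.0064). With the replicate block their adjusted p were 0.0328, 0.0328, 0.0494, 0.0636 and 0.0494 in the same order, and with only the old spleens in the fit 0.217, 0.326, 0.217, 0.326 and 0.399. Sex and library kind cannot be told apart.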

How the results depend on the processing

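The number of called genes moved with most choices, and the cause was not tested. Over both sexes (1 gene) it was 100 with DESeq2, 2007 with voom, 0 with the replicate block, with only old spleens (0), without the 2 libraries whose transgene goes against the label (0) and with near-identical libraries summed (0), 2 without libraries with pancreatic transcripts and 599 without male CreER 2 and female nmrHAS2 2, and leaving out 1 library gave 0 to 93 (93 without female nmrHAS2 2, 45 without male CreER 2). In females (0) it was 1 with no filter, 19 with DESeq2, 3 without the transgene pair, 2 without pancreatic libraries and 0 to 2 leaving out 1; the block left it at 0. In males (279) it was 1005 with DESeq2, 3986 with voom, 135 with the replicate block, 0 with only old spleens, 483 without the transgene pair, 37 without pancreatic libraries, 1663 without the 2 libraries that stand apart and 21 with near-identical libraries summed. Leaving out 1 library gave 37 to 1170 in males: 1170 without male CreER 2, 581 without male nmrHAS2 3, 525 without female nmrHAS2 2, 176 without female CreER 1, 164 and 83 without male CreER 3 and 1, and 86 and 37 without male nmrHAS2 2 and 1. The difference between sexes (21) gave 32 with no filter, 320 with DESeq2, 588 with voom, 13 with the replicate block, 0 with only old spleens, 6 without pancreatic libraries, 57 without the 2 that stand apart, 7 with libraries summed and 8 to 145 leaving out 1. The difference between ages (0) gave 33 with DESeq2, 33 with voom, 41 without the 2 that stand apart and 0 to 12 leaving out 1; without pancreatic libraries no young female is left and it has no value.

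The transgene difference of 0.969 ran from 0.688 to 1.322 leaving out 1 library. Signs reversed with voom for Gpat2 (1.2), Aldh8a1 (0.061), Pde1c (0.019) and, in males, Tph1 (1.03), without pancreatic libraries for Gp2 (-0.155), and without the 2 libraries that stand apart for Abcc2 (0.39) and Tph1 (1.35). Leaving out 1 library, the log2 difference ran over -0.113 to 2.526 for Gp2, -0.429 to 2.215 for Cela1, -3.116 to 0.2 for Abcc2, -2.733 to 0.094 for Pde1c and -6.585 to 1.349 for Tph1 in males, the reversed ends being those without female nmrHAS2 1 (Gp2, Cela1) or male CreER 2. In simulated data, 86.4%, 50% and 20.3% of genes changed 4-fold, 2-fold and 1.5-fold were recovered over both sexes, 74.2%, 21.2% and 0% in females and 66.7%, 24.2% and 10.9% in males. The simulated libraries were independent, with the depths and gene spreads of the data and the same starting mean in every group. They held no near-identical pair, no library that stands apart, no shared deviation by number and no sex difference in level. Recovery in the real libraries may therefore differ and is not known. No change that differed between the sexes was simulated, so recovery of the test between sexes is not known.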
